A study of Homo sapiens with 12 samples.

Results

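The ERβ2 knockdown experiment consisted of 3 arrays from BT549 cells transfected with siRNA against ERβ2 and 3 arrays from BT549 cells transfected with a control siRNA, all with RNA taken 48 h after transfection. These are 6 of the 12 arrays of the study. The other 6 were BT549 cells taken 24 h after transfection with an empty pcDNA3 vector (EV, 3 arrays) or with the same vector carrying FLAG-tagged ERβ2 cDNA (ERβ2 plasmid, 3 arrays). The arrays were of the Affymetrix Human Gene 1.1 ST type, which gives 1 log2 value per transcript cluster, a set of probes to 1 transcribed locus. Of 33297 transcript clusters, 19181 were assigned to a single gene. Where several read the same gene the brightest on average was kept, which left 17958 genes.

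BT549 is an established line from a triple-negative breast cancer, that is, a tumor without ERα, progesterone receptor or amplified HER2. ERβ2 is a splice form of ERβ, encoded by ESR2, whose last exon differs from that of ERβ1. ERβ2 binds estrogen poorly and can pair with other estrogen receptors. As a model the experiment has 1 cell line and a transient transfection, and it is not stated which of the study's siRNAs against ERβ2 the arrays represent. The series describes the replicates as biological, and siRNA and plasmid were carried in by different reagents.

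The arrays of each group were close to each other, and the siRNA groups were well apart. Array medians over all 33297 transcript clusters lay between 5.04 and 5.14 on the log2 scale. They were 5.08 to 5.14 with control siRNA and 5.04 to 5.06 with ERβ2 siRNA. The correlation of an array with its own group was between 0.9977 and 0.9984. The first principal component of the 6 arrays held 70.5% of the variance and separated the groups. The labelled cell type matched its markers with ERBB2 as an exception. VIM (vimentin), CD44, SPARC, ZEB1 and CDH2 (N-cadherin), genes of mesenchymal cells, were bright on all 6 arrays. None of these mesenchymal genes passed the test between the groups. CDH1 (E-cadherin), EPCAM, ESRP1, ESR1 and PGR were dim, with log2 values between 3.38 and 4.52 on the 6 arrays. CDH1 rose at the edge of the test (log2 change 0.17, adjusted p = 0.0997 from limma), a call that 11 of the alternative settings did not keep. ERBB2 (HER2), which had been listed as a low marker, was not dim. It stood at 7.85 to 7.98, at percentile 67.5 of mean signal. Of 19 measured markers of other cell types, 2 rose, 4 fell and 13 did not pass, with a median log2 change of −0.06 that was 0.00 after a further quantile normalization, and the list's mean log2 value ran from 4.40 to 4.48 with control siRNA and from 4.37 to 4.44 with ERβ2 siRNA. The 2 that rose were CD14 (log2 change 0.48) and CD68 (0.36), both genes of macrophages, while PTPRC, the pan-leukocyte marker, lay between 3.33 and 3.60 on every array.

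The targeted gene gave no check of the labels. ESR2 had log2 values of 4.03, 3.88 and 4.05 with control siRNA and 4.12, 3.99 and 3.80 with ERβ2 siRNA. The groups overlapped, and the change of −0.02 (95% confidence interval −0.22 to 0.19, adjusted p = 0.913 from limma) did not pass the test. Its sign turned under re-normalization and without single arrays. The cluster is among the dim ones and reads all ESR2 isoforms together, so the ERβ2 form was not measured on its own.

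After ERβ2 siRNA 584 genes (3.25% of those tested) were called higher and 227 (1.26%) were called lower, which required a 1.5-fold difference, an unadjusted p below 0.05 and, after Benjamini-Hochberg adjustment of limma's p over all genes, no more than 0.1. Most changes were small. The median called gene moved 1.71-fold among those higher and 1.63-fold among those lower, and 121 genes rose and 37 fell by at least 2-fold. At any size, 3279 genes (18.3%) rose and 3150 (17.5%) fell with an adjusted p no higher than 0.1, which is what "rose" and "fell" mean below. The 3 ERβ2 siRNA arrays all lay above the 3 control arrays for 3795 genes (21.1%) and all below them for 3822 genes (21.3%). Over all genes the median log2 change was −0.03. It was −0.117 when each array was centred on its own median over the 17958 genes, not over all transcript clusters. That shift moved the share of called genes that were higher from 72.0% to 54.0%. The share was 63.4% after a further quantile normalization.

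**Figure D1:**
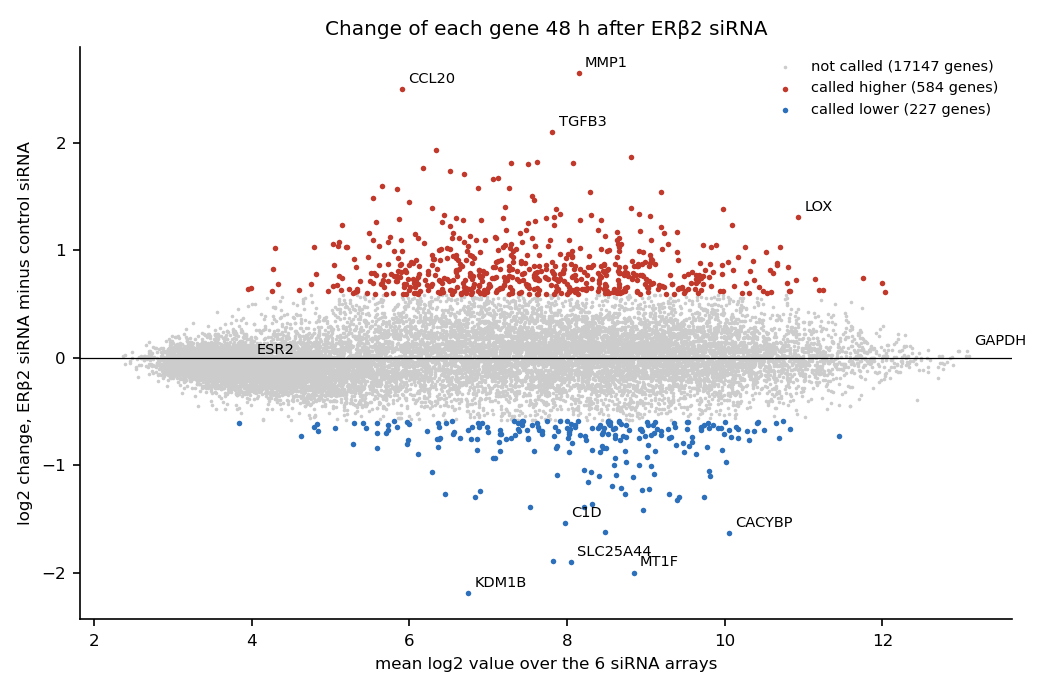
Log2 change of each of the 17958 genes (ERβ2 siRNA minus control siRNA, vertical axis) against the mean log2 value over the 6 siRNA arrays (horizontal axis), with the 584 genes called higher in red and the 227 called lower in blue. The largest changes lie at middle signal levels, and GAPDH and ESR2 lie near 0.

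The largest rises and falls are described among called genes whose arrays did not overlap, so their separation was a condition of the choice. MMP1, the interstitial collagenase that cuts fibrillar collagen, had log2 values of 6.86, 6.77 and 6.85 with control siRNA and 9.38, 9.55 and 9.49 with ERβ2 siRNA. The groups did not overlap, and MMP1 was 6.26-fold higher, a log2 change of 2.65 with a standard error of 0.06 (adjusted p = 8.45e-07 from limma). PRUNE2, a BCH domain protein, went from 6.65, 6.75 and 6.73 to 8.50, 8.54 and 8.54 and was 3.52-fold higher. Its second transcript cluster rose by 1.72, close to the 1.82 of the first. TPD52L1, a coiled-coil protein of the tumor protein D52 family, went from 7.19, 7.13 and 7.18 to 9.01, 8.98 and 8.93, with no overlap, and was 3.50-fold higher. CD248 (endosialin), a surface protein of stromal cells and pericytes, went from 5.1, 5.45 and 5.31 to 7.18, 6.88 and 7.10, which was wider spread within groups but still fully separated (3.40-fold). Among the remaining 12 largest rises were ARSJ, an arylsulfatase (3.49-fold), GPAT3, an acyltransferase that starts glycerolipid synthesis (3.27-fold), and LINC00052, a long noncoding RNA (3.34-fold).

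Among the falls, KDM1B, a histone H3 lysine 4 demethylase, stood at 7.87, 7.85 and 7.79 with control siRNA and at 5.96, 5.47 and 5.51 with ERβ2 siRNA. All 3 ERβ2 siRNA arrays were lower, the first of them least so, and the gene was 4.56-fold lower (adjusted p = 1.19e-05 from limma). CACYBP, a calcyclin-binding protein of the ubiquitin system, went from 10.80, 10.94 and 10.86 to 9.20, 9.23 and 9.29 and was 3.09-fold lower, with a second cluster at −1.30. BABAM1, a subunit of the BRCA1-A complex of DNA repair, went from 9.38, 9.24 and 9.25 to 7.71, 7.71 and 7.60 and was 3.07-fold lower. C1D, a cofactor of the nuclear RNA exosome, had values of 8.76, 8.76 and 8.70 against 7.19, 7.20 and 7.21. Its ERβ2 siRNA arrays were almost identical and far below the control arrays, and all 4 of its clusters fell, by log2 changes between −1.27 and −1.54. Whether the clusters of C1D, or those of CACYBP, read separate loci was not checked, so they may share signal. The other large falls included TPP2, a giant cytosolic peptidase (2.68-fold lower), CIAO2A, of cytosolic iron-sulfur protein assembly (2.62-fold), PC, pyruvate carboxylase (2.63-fold), UBE2Q2, a ubiquitin-conjugating enzyme (2.57-fold), and DMAC2, an assembly factor of the respiratory chain (2.50-fold).

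**Figure D2:**
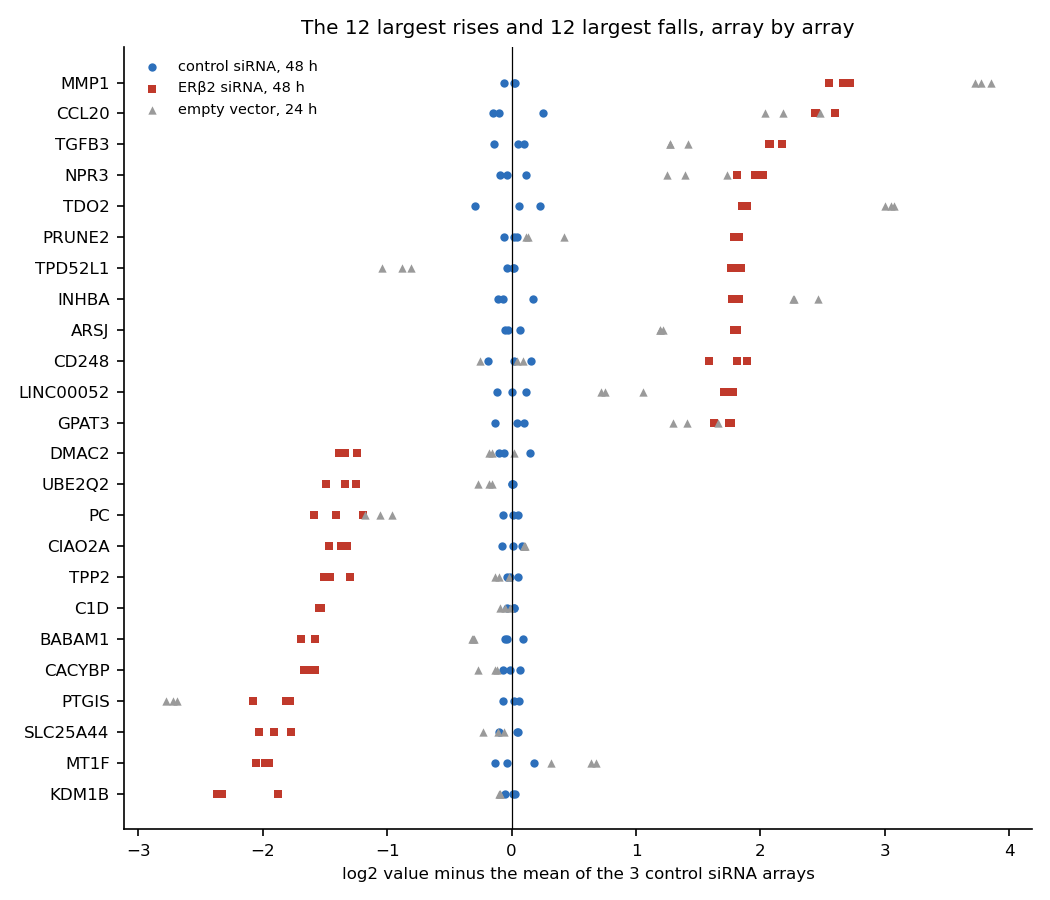
Log2 values of the 12 largest rises and the 12 largest falls on each array, as the difference from the mean of the 3 control siRNA arrays (horizontal axis), for control siRNA (blue circles), ERβ2 siRNA (red squares) and, for side by side reading, EV (grey triangles). The genes were chosen among those whose siRNA groups do not overlap, and the EV arrays lie near the controls for KDM1B and C1D and above both siRNA groups for MMP1 and TDO2.

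The EV arrays, which were taken at 24 h after another transfection reagent, stood at different places from gene to gene, among rises and falls alike. KDM1B had 7.74, 7.75 and 7.75 with EV, near its control siRNA values, and C1D had 8.65, 8.69 and 8.73. For MMP1 the EV arrays read 10.68, 10.60 and 10.55, above those with ERβ2 siRNA, and TDO2, which opens the breakdown of tryptophan, read 10.95, 10.88 and 10.93 with EV against 9.74, 9.73 and 9.77 with ERβ2 siRNA. TPD52L1 went the other way, at 6.29, 6.36 and 6.13 with EV. CD248, another rise, read 5.04, 5.38 and 5.33 with EV, near its control siRNA values. PC, a fall, read 7.74, 7.96 and 7.86 with EV, below its control siRNA values. PTGIS, the prostacyclin synthase that was 3.71-fold lower after ERβ2 siRNA, was lower still with EV (5.99, 6.08 and 6.05, against 6.96, 6.69 and 6.99). Time, reagent and vector cannot be told apart in these values.

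Among genes of the extracellular matrix, most of the measured glycoproteins and collagen enzymes rose, and 15 of 37 metalloproteases and 10 of 28 collagens did. The matrix is the protein mesh around cells, which metalloproteases cut and lysyl oxidases cross-link. Of 39 measured matrix glycoproteins and proteoglycans, 26 rose, 1 fell and 12 did not pass, with a median log2 change of 0.26 against −0.03 over all genes, and after centring 23 rose and 6 fell. EFEMP1 (fibulin-3), a basement membrane glycoprotein, went from 8.27, 8.09 and 8.0 to 9.62, 9.39 and 9.53, with no overlap, and rose by 1.39 (standard error 0.09). LTBP2, a protein of elastic fibers, went from 7.84, 7.68 and 7.88 to 8.93, 9.08 and 8.95 and rose by 1.19. VCAN (versican), a large proteoglycan, rose by 1.03 and AGRN (agrin), a heparan sulfate proteoglycan, by 0.96. Of 21 enzymes that process collagen, 14 rose, none fell and 7 did not pass (median 0.23). After centring 10 rose and 1 fell (median 0.15). LOX, the lysyl oxidase that starts the cross-links of collagen and elastin, went from 10.21, 10.39 and 10.22 to 11.58, 11.51 and 11.67 and was 2.49-fold higher, with all arrays apart. The prolyl hydroxylases P4HA2 (0.87), P4HA3 (0.85) and P3H2 (0.84) rose as well. Collagens themselves moved less evenly: 10 of 28 rose, 2 fell and 16 did not pass, with a median of 0.03 that turned to −0.06 when arrays were centred on their medians, with 9 rises and 5 falls. COL12A1, a collagen on the surface of fibrils, rose by 1.22 (8.65, 8.52 and 8.57 against 9.76, 9.84 and 9.79), and COL1A1, COL1A2 and COL6A1 rose by 0.66 to 0.68.

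Of 37 metalloproteases, 15 rose, 3 fell and 19 did not pass (median 0.12), and after centring 12 rose and 7 fell. MMP3 (stromelysin-1), which cuts many matrix proteins and activates other MMPs, went from 5.11, 5.22 and 5.35 to 6.52, 6.51 and 6.51. Its ERβ2 siRNA arrays were almost identical and above all controls, and it was 2.44-fold higher. ADAMTS3, which trims procollagen, rose by 0.89 and ADAMTS12 by 0.77. Inhibitors of matrix breakdown were among the rises too. Of 24 measured invasion inhibitors and plasminogen system genes, 8 rose, 3 fell and 13 did not pass, with a median of 0.03 that turned to −0.06 after median centring, with 5 rises and 6 falls. RECK, a membrane-anchored inhibitor of MMPs, had 6.49, 6.69 and 6.71 with control siRNA and 7.84, 7.75 and 7.88 with ERβ2 siRNA. TFPI2, an inhibitor of serine proteases in the matrix, rose by 0.94 and TFPI, the inhibitor of tissue factor, by 0.75. The arrays measured RNA and no protease activity. Of 24 integrins and laminins, 14 rose, 1 fell and 9 did not pass (median 0.24, with 12 rises and 4 falls after centring), among them LAMA4 (0.89), LAMB1 (0.55) and ITGA11 (0.50), a collagen receptor, while ITGA10, another collagen-binding integrin, fell by 0.56.

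Ligands of the TGF-β family were among the largest rises. They signal through SMAD proteins and are known to drive matrix production. Of 39 measured genes of the TGF-β and activin system, 21 rose, 2 fell and 16 did not pass (median 0.21), and after centring 17 rose and 8 fell. TGFB3 went from 6.62, 6.81 and 6.86 to 8.93, 8.84 and 8.83 and INHBA, a subunit of activin A, from 6.55, 6.27 and 6.31 to 8.20, 8.21 and 8.15. Both were fully separated, which was a condition of their choice, at 4.30-fold and 3.51-fold. GDF15, a distant family member and stress cytokine, rose by 1.11. BMP2, a bone morphogenetic protein, had 5.76, 5.77 and 5.78 with control siRNA and 7.09, 7.23 and 6.97 with ERβ2 siRNA, a 2.51-fold rise from a very narrow control range.

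Other ligand and receptor families had both rises and falls, and their falls were not far from the rate over all genes. Over all genes 18.3% rose and 17.5% fell. The share that fell was below this for semaphorin, ephrin and EGF genes and slightly above it for WNT and Notch genes. The share that rose was above 18.3% in each of these families. Of 37 semaphorins, ephrins and their receptors, which guide axons and vessels, 18 rose, 5 fell and 14 did not pass (median 0.15), and after centring 16 rose and 9 fell. EPHA4 rose by 0.99 (8.11, 7.93 and 8.0 against 9.16, 8.89 and 8.95), PLXNC1 by 0.94 and SEMA3C by 0.74. Of 40 WNT genes, 12 rose, 8 fell and 20 did not pass (median −0.08), with 14 falls when arrays were centred on their medians. SFRP2, a secreted binder of WNT ligands, rose by 1.1 (8.46, 8.62 and 8.48 against 9.69, 9.60 and 9.57), and ROR2, a WNT5A receptor, by 0.82, while the receptor FZD2 fell by 0.68. Of 21 Notch genes, 6 rose and 4 fell (median −0.07), and after centring 5 rose and 10 fell (median −0.16). Both JAG2, a ligand (0.81), and NOTCH3, a receptor (0.66), were called higher. Of 18 EGF receptors, ligands and adaptors, 5 rose and 2 fell (median −0.01, and 0.02 to 0.04 after further quantile or loess normalization), and after centring 4 rose and 5 fell. The receptor EGFR rose by 0.35 and its ligand HBEGF by 0.49. The adaptor GAB1 fell by 0.63 on its brightest cluster, and its second cluster had −0.26 (adjusted p = 0.0798 from limma over all clusters). On the path below these receptors, 15 of 37 AP-1, EGR and DUSP genes rose and 7 fell (median 0.12). After median centring 7 rose and 9 fell. SPRY1, a feedback inhibitor of receptor tyrosine kinases, was the one called higher (0.69), and KLF2 fell by 0.58.

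Inflammatory mediators changed gene by gene. Of 27 chemokines, 8 rose, 5 fell and 14 did not pass, with a median of 0.00 that became −0.08 after centring, with 10 falls. CCL20, which attracts CCR6-bearing lymphocytes, went from 4.51, 4.56 and 4.91 to 7.26, 7.11 and 7.10, and CXCL5, which attracts neutrophils, from 7.76, 7.75 and 7.86 to 9.07, 9.0 and 9.14. Both were higher on all arrays, for CCL20 a condition of the choice, at 5.64-fold and 2.43-fold. CCL5, a T cell attractant, fell by 0.71 (8.74, 8.80 and 8.85 against 8.06, 7.99 and 8.22), and CCL3 fell by 0.68 with overlapping arrays (5.30, 5.31 and 4.94 against 5.00, 4.30 and 4.21). Without control siRNA replicate 1 or 2 or ERβ2 siRNA replicate 3 CCL3 no longer passed (adjusted p = 0.102 to 0.104 from limma). Of 33 interleukins and receptors, 11 rose, 5 fell and 17 did not pass (median 0.07, and −0.02 after centring). IL6 rose by 1.33 on its brightest cluster, from 7.47, 7.69 and 7.75 to 8.96, 8.98 and 8.95. The second IL6 cluster did not pass (change −0.08, adjusted p = 0.544 from limma over all clusters). The receptors IL7R (0.95), IL1RAP (0.83) and LIFR (0.73) rose. Of 18 NF-κB subunits and inhibitors, 5 rose and none fell (median 0.08, and −0.01 after centring), while 4 fell in each of the 3 re-scalings. REL (c-Rel) rose by 0.99, from 6.38, 6.14 and 6.17 to 7.28, 7.17 and 7.20.

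Of 25 measured genes of the prostaglandin system, 13 rose, 1 fell and 11 did not pass (median 0.21), and after centring 11 rose and 4 fell. PTGS2 (COX-2), the inducible enzyme that makes the precursor of all prostaglandins, went from 6.14, 5.96 and 5.81 to 7.12, 6.92 and 6.94 and was 2.03-fold higher, while PTGIS, which turns that precursor into prostacyclin, went from 8.79, 8.70 and 8.83 to 6.96, 6.69 and 6.99. Neither gene's groups overlapped, which for PTGIS was a condition of the choice, and the directions were opposite. AKR1C1 rose by 0.95 on 1 cluster and 0.67 on another, and AKR1C3, which makes prostaglandin F forms, by 0.81. AKR1C genes are near-identical copies, so their values may share signal.

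Genes of the antiviral response, which foreign RNA can switch on, were counted in both directions. Of 37 interferon-stimulated genes, 5 rose, 6 fell and 26 did not pass (median −0.03, as over all genes). The median was 0.02 after further quantile or loess normalization and −0.11, with 13 falls, after centring. The list's mean log2 value was 5.83 to 5.86 with control siRNA and 5.73 to 5.94 with ERβ2 siRNA. With EV it was 9.89 to 9.94. MX2, a restriction factor, rose by 0.81 and ISG15 by 0.50, whereas IRF9, the DNA-binding part of the interferon-activated ISGF3 complex, fell by 0.59 (8.15, 8.19 and 8.27 against 7.70, 7.62 and 7.52). Among 20 sensors of foreign nucleic acid, 5 rose and 4 fell (median −0.07), and 4 rose and 10 fell after centring (median −0.16). TLR3 had 5.58, 5.36 and 5.55 with control siRNA, 5.80, 5.77 and 5.86 with ERβ2 siRNA and 9.21, 9.13 and 9.31 with EV. TLR3 rose by 0.31 between the siRNA groups, and all 6 of those arrays lay far below EV. Of 19 genes of MHC class I presentation, 7 rose and 2 fell (median 0.15), and after centring 6 rose and 2 fell (median 0.07). PSMB8, an immunoproteasome subunit, rose by 0.43, and PSME2, a proteasome activator, fell by 0.53.

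Targets of hypoxia signalling were the list with the highest median change. HIF transcription factors, when stable, switch on genes that adapt cells to low oxygen. Of 30 measured targets outside glycolysis, 21 rose, none fell and 9 did not pass (median 0.40, and 0.32 to 0.39 under the 3 re-scalings, where 2 fell). LOX and P4HA2 belong to this list as well as to the collagen enzymes. CA12, a membrane carbonic anhydrase, went from 8.54, 8.56 and 8.53 to 9.48, 9.41 and 9.42 and rose by 0.89. INSIG2, which holds back sterol synthesis, went from 6.25, 6.27 and 6.25 to 7.21, 7.10 and 7.20 and rose by 0.91. In both, each control array lay far from each ERβ2 siRNA array. HIF1A itself had 11.65, 11.76 and 11.67 against 11.75, 11.90 and 11.92, and its change of 0.16 did not pass (adjusted p = 0.104 from limma), though it did so in 7 of the alternative settings. EGLN3 (PHD3), a hydroxylase that marks HIF-1α for destruction, had 5.93, 5.88 and 6.21 against 6.74, 6.75 and 6.70. The arrays measured RNA and no HIF protein. By Western blot and ELISA the study reported less HIF-1α protein in BT549 cells after ERβ2 knockdown. The cause of the rises in this list was not tested.

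Glycolysis genes rose in part. Of 24 genes of glycolysis and lactate export, 11 rose, 2 fell and 11 did not pass (median 0.12). After centring 8 rose and 2 fell (median 0.03). PFKFB4, which makes the activator of phosphofructokinase, went from 6.54, 6.46 and 6.53 to 7.95, 7.83 and 7.94, with no overlap, and was 2.63-fold higher. HK2, a hexokinase, rose by 0.60. SLC2A1 (GLUT1), the main glucose importer, went the other way, from 10.75, 10.65 and 10.77 to 10.15, 10.06 and 10.15, and was 1.52-fold lower. PC, which feeds pyruvate into the citric acid cycle, was also lower (8.93, 8.85 and 8.97 against 7.73, 7.33 and 7.51).

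Genes of stress in the endoplasmic reticulum mostly rose. Of 38 genes of the ATF4 and unfolded protein response, 25 rose, 3 fell and 10 did not pass (median 0.25), and 7 fell in each of the 3 re-scalings. VLDLR, a lipoprotein receptor that ATF4 induces, went from 7.27, 7.10 and 7.14 to 8.61, 8.52 and 8.52 and SDF2L1, a chaperone partner in the endoplasmic reticulum, from 7.11, 7.04 and 7.08 to 8.51, 8.34 and 8.28. The groups were apart for both, at 2.60-fold and 2.46-fold. ALDH1L2, a mitochondrial folate enzyme, rose by 1.16 and CRELD2, a folding factor, by 0.85. Of 25 amino acid transporters, 11 rose, 3 fell and 11 did not pass (median 0.18). After centring 9 rose and 3 fell (median 0.09). SLC1A3, a glutamate and aspartate carrier, rose by 1.12 (5.20, 5.24 and 5.17 against 6.31, 6.20 and 6.46), SLC6A9, a glycine carrier, by 0.92 and SLC7A11, the cystine importer, by 0.86. The tRNA synthetases were closer to the background: 9 of 34 rose, 2 fell and 23 did not pass (median 0.08, and −0.01 after centring), and CARS2 (0.60) was the one called higher.

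Of 29 genes of sterol and fatty acid synthesis, 20 rose, none fell and 9 did not pass (median 0.27, with 16 to 20 rises and no fall in the 3 re-scalings). STARD4, a cholesterol carrier, went from 7.74, 7.78 and 7.72 to 8.65, 8.51 and 8.56 and ACACA, acetyl-CoA carboxylase, from 9.15, 9.26 and 9.24 to 9.88, 9.94 and 9.94. Their arrays were fully apart, with changes of 0.83 and 0.70. HMGCS1, which makes HMG-CoA, rose by 0.66 and SQLE, squalene epoxidase, by 0.56. Of 34 lysosomal cathepsins and V-ATPase subunits, 17 rose, 1 fell and 16 did not pass (median 0.15, with 9 rises after centring). CTSL (cathepsin L), a lysosomal protease that can be secreted, went from 11.53, 11.73 and 11.69 to 12.33, 12.37 and 12.36.

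Most measured metallothioneins fell. These small cysteine-rich proteins bind zinc and copper, and their genes are switched on by the zinc-sensing factor MTF1. Of 11 measured, none rose, 8 fell and 3 did not pass, with a median log2 change of −0.51 and between 7 and 10 falls in the 3 re-scalings. MT1F went from 10.02, 9.80 and 9.71 to 7.89, 7.86 and 7.79 and was 3.99-fold lower (adjusted p = 5.16e-06 from limma). MT1E went from 8.93, 8.69 and 8.90 to 7.71, 7.63 and 7.71 and was 2.23-fold lower. Neither gene's groups overlapped, which for MT1F was a condition of the choice. MT1G (1.67-fold lower), MT1L (1.56-fold) and MT1X (1.51-fold) were also called, whereas MT2A, at 12.60, 12.68 and 12.61 against 12.20, 12.28 and 12.24, fell by 0.39, with −0.40 and −0.52 on its other 2 clusters. MT1M fell by 0.51 with 1 low array (6.16, 6.19 and 5.93 against 5.16, 5.89 and 5.71), and without control siRNA replicate 1 or 2 it no longer passed (adjusted p = 0.140 and 0.147 from limma). MT4 fell by 0.27. MT3, the form of brain, did not pass (5.70, 5.58 and 5.76 against 5.73, 5.63 and 5.64), and neither did MT1B and MT1H. Metallothionein genes are near-identical copies, so how the signal divides among them is uncertain.

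**Figure D3:**
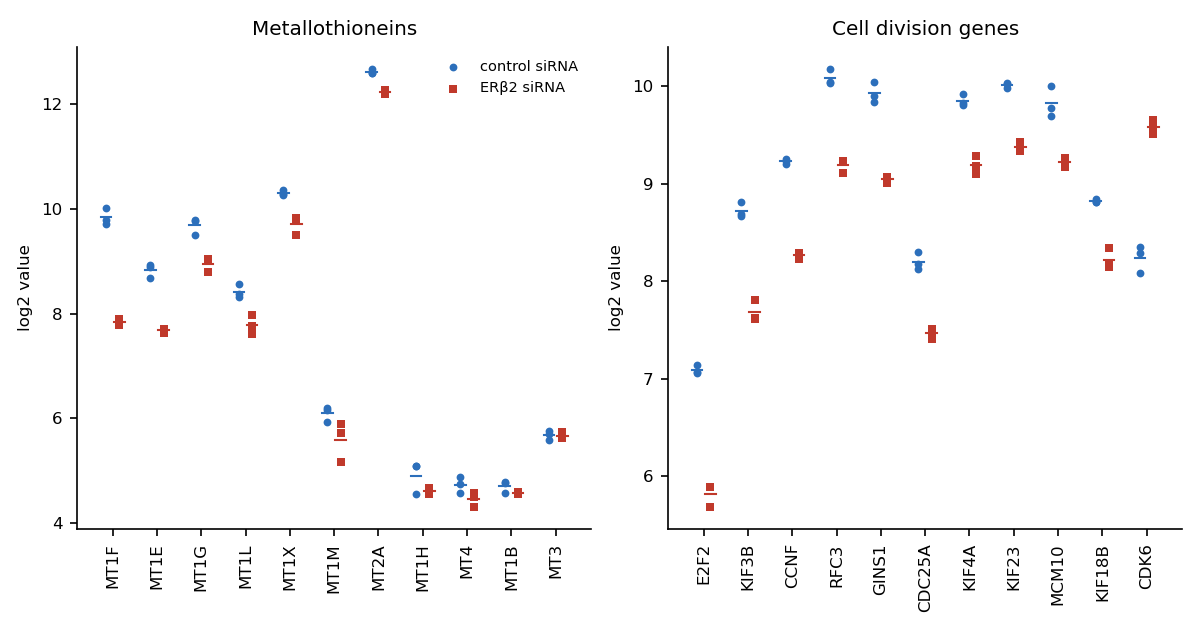
Log2 values on each of the 3 control siRNA arrays (blue circles) and the 3 ERβ2 siRNA arrays (red squares), with the group mean as a bar, for the 11 metallothioneins (left) and for 11 cell division genes (right). MT1F and MT1E are far apart between groups and MT3 overlaps, and CDK6 alone among the division genes shown is higher with ERβ2 siRNA. Levels of different genes come from different probes and are not to be compared.

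The proteins that move zinc did not follow in 1 direction. Of 28 zinc and copper transporters and regulators, 8 rose, 5 fell and 15 did not pass (median 0.08, and −0.01 after centring). The zinc importers SLC39A10 (8.13, 8.17 and 8.15 against 9.18, 9.11 and 9.26) and SLC39A8 (9.62, 9.46 and 9.55 against 10.42, 10.39 and 10.39) rose by 1.03 and 0.86. ATP7A, a copper exporter, rose by 0.44 and SLC31A2, of copper uptake, fell by 0.53.

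The promoters of 2 metallothioneins are shown for the letters that MTF1 is known to read, TGCNCNC, searched on both strands and in capitals below. The sequences are the 200 bases before the annotated gene start, from RefSeq, build GRCh38.p14, plus strand: MT1X at chr16:56682270-56682469 and MT2A at chr16:56608384-56608583.
MT1X: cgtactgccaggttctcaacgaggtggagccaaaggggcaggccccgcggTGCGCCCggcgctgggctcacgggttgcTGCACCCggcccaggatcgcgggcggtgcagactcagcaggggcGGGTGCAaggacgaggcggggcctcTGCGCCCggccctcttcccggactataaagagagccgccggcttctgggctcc
MT2A: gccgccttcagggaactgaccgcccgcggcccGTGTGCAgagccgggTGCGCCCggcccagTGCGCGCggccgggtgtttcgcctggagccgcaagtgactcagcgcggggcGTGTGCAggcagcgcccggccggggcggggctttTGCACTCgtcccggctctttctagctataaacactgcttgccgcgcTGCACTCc
MT1X, which was called lower, holds 4 matches in this stretch, and MT2A, whose fall was smaller, holds 6, of which 2 overlap a match to another motif searched. Of the 11 measured metallothioneins 5 had a promoter in the RefSeq table, and all 5 held the letters between 250 bases before and 50 after the start, with 4 to 8 matches. Among them were MT1B and MT1H, which did not pass, and MT4. The letters occur at least once in 60.6% of the 13864 measured genes with a promoter and in 55.2% of all 27305 promoters.

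Among genes of the cell cycle falls outnumbered rises. Of 40 cyclins, cyclin-dependent kinases (CDKs), E2F factors and CDK inhibitors, 4 rose, 21 fell and 15 did not pass (median −0.20, and −0.22 to −0.28 in the 3 re-scalings). E2F2, which switches on genes for DNA synthesis, went from 7.06, 7.07 and 7.14 to 5.89, 5.69 and 5.89 and CCNF (cyclin F), which marks proteins for destruction in G2, from 9.26, 9.24 and 9.20 to 8.29, 8.28 and 8.23. Both were fully separated, at 2.41-fold and 1.95-fold lower. CDC25A, the phosphatase that turns on CDK2, fell by 0.73. CDK6, a kinase of G1, was the largest change of the list and 1 of its 4 rises, from 8.29, 8.35 and 8.09 to 9.51, 9.66 and 9.57 (2.53-fold higher). CDKN1A (p21), an inhibitor of CDKs, was also called higher (0.61), and E2F3 (0.27) and CDC25B (0.23) rose, the 3 being named after their values were seen. Of 53 genes of the DNA replication machinery, 2 rose, 22 fell and 29 did not pass (median −0.11), and 28 to 33 fell in the 3 re-scalings. RFC3, of the clamp loader, went from 10.18, 10.04 and 10.05 to 9.24, 9.23 and 9.11 and GINS1, of the replicative helicase, from 10.05, 9.90 and 9.84 to 9.07, 9.07 and 9.01. MCM10 fell by 0.60 and ORC6, of the origin recognition complex, by 0.58.

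Of 34 kinesin motors, which carry cargo on microtubules and build the mitotic spindle, 4 rose, 14 fell and 16 did not pass (median −0.13). KIF3B, a motor of cilia and vesicles rather than of the spindle, had the largest change, from 8.82, 8.67 and 8.69 to 7.81, 7.62 and 7.63 (2.06-fold lower). KIF4A, which shapes the midzone of the spindle, fell by 0.66, KIF23, which is needed for cytokinesis, by 0.64 and KIF18B, which shortens astral microtubules, by 0.60. Their arrays did not overlap, and KIF23 went from 10.04, 9.98 and 10.02 to 9.43, 9.36 and 9.34. The letters TTTGAA, the core of the cell cycle homology region found in promoters of genes used in G2 and mitosis, stand in 10 of the 28 kinesin promoters in the RefSeq table (35.7%), against 1657 of the 13864 measured genes with a promoter and 15.4% of all promoters. They stand in 8 of 13 promoters of kinesins that fell and in 2 of 15 of the others. KIF3B holds none. The letters occur on either strand, between 250 bases before and 50 after the start, and the promoters of KIF23 (chr15:69414149-69414348) and CCNF (chr16:2429247-2429446), both on the plus strand of GRCh38.p14, show where they lie in the 200 bases before the start, in capitals.
KIF23: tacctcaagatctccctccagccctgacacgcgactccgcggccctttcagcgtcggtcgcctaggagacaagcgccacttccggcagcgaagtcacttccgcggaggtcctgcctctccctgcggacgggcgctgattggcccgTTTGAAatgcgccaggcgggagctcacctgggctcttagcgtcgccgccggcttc
CCNF: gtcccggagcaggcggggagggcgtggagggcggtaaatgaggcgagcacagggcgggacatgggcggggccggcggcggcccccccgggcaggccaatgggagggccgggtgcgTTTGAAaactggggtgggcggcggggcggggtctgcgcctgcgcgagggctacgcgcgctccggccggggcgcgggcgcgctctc
Each holds 1 match, which overlaps none of the other motifs searched. Among cyclins and CDK genes the letters stand in 3 of 15 promoters of those that fell and in 2 of 16 of the others. In the DNA replication list, where falls also outnumbered rises, they stand in only 3 of 47 promoters (6.38%). Over all called genes they stand in 33 of 186 promoters of those lower (17.7%) and 41 of 467 of those higher (8.78%). The share of promoters with the letters differed between the cell cycle lists. Several motifs were searched in all lists, and these shares were not tested. A match is a description of the letters in this window and not a bound site.

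Regulators of chromatin and transcription moved singly. Of 48 lysine demethylases and methyltransferases, 8 rose, 8 fell and 32 did not pass (median 0.00, with 13 to 17 falls in the 3 re-scalings), and its median was −0.02 to −0.08 there. KDM1B was the lowest of the list at −2.19. SETD7, a methyltransferase of histone H3 lysine 4 and other proteins, rose by 1.13 (7.91, 7.87 and 7.96 against 9.08, 9.0 and 9.06), KDM7A rose by 0.80 and KDM3B fell by 0.60. Of 32 nuclear receptors, 11 rose, 6 fell and 15 did not pass (median −0.01, and 0.05 after further quantile or loess normalization), and after centring 7 rose and 9 fell. NR4A3 (1.04) and NR4A2 (0.81), receptors that are switched on by acute signals, and PPARG (0.75), of fat cell formation, rose. ESRRA, the estrogen-related receptor α that controls mitochondrial genes, went from 7.58, 7.47 and 7.61 to 6.40, 6.75 and 6.71 and was 1.91-fold lower.

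Mitochondrial genes were counted in 2 lists. Of 49 respiratory chain subunits, 7 rose, 10 fell and 32 did not pass (median −0.04, with 17 falls after centring), and no member was called. SDHD, a subunit of succinate dehydrogenase, fell by 0.46 on its brightest cluster, while its second cluster, at −0.28, did not pass. Of 35 mitochondrial carriers, 8 rose and 9 fell (median −0.03), and 15 fell after centring. SLC25A44, a carrier of branched-chain amino acids, went from 8.90, 9.04 and 9.05 to 7.09, 7.23 and 6.97, the lowest of its list, SLC25A40 fell by 0.88 and SLC25A14 by 0.76, and SLC25A15, the ornithine carrier, rose by 0.76. Of 59 ribosomal proteins, 2 rose, 2 fell and 55 did not pass (median −0.02), and after centring 1 rose and 12 fell (median −0.10). Of 12 reference genes TFRC alone rose (0.18, and not after centring), and ACTB and GAPDH did not pass. PPIA did not pass on its brightest cluster, but its second cluster rose by 0.18 (adjusted p = 0.0373 from limma over all clusters).

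Part of the RNA silencing machinery, which also carries siRNA, rose. Of 17 measured genes, 8 rose, 3 fell and 6 did not pass (median 0.20, and 0.11 to 0.16 in the 3 re-scalings). DICER1, which cuts miRNA precursors, went from 9.54, 9.40 and 9.42 to 10.21, 10.34 and 10.21 and AGO3, an Argonaute protein, from 7.92, 7.72 and 7.78 to 8.55, 8.37 and 8.43. Both were separated on all arrays, with changes of 0.80 and 0.64. AGO4 rose by 0.50 and TNRC6B, a partner of Argonaute, by 0.32. C1D had the lowest value among its partners. Of the 10 measured exosome subunits 2 rose (EXOSC5 by 0.50 and EXOSC7 by 0.28), 2 fell (EXOSC9 and EXOSC6, by 0.26 and 0.25) and the others did not pass.

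Noncoding genes were counted by RefSeq class. Of 180 measured miRNA genes 5 rose (2.78%) and 15 fell (8.33%), against 19.1% and 18.1% of the 16557 protein-coding genes, and of 526 long noncoding RNA genes 6.65% rose and 11.6% fell. Of 188 small nucleolar RNA genes 42 rose (22.3%) and 6 fell (3.19%), and of 16 genes in RefSeq's general ncRNA class 7 rose and 1 fell. No test was made of these shares. The 2 miRNA genes called higher were MIR503 and MIRLET7I. MIR503 went from 7.46, 7.49 and 7.60 to 9.47, 8.60 and 9.11, a rise of 1.54 (standard error 0.18, adjusted p = 4.78e-04 from limma), and its host transcript MIR503HG from 8.01, 8.11 and 7.98 to 9.31, 8.63 and 9.16, a rise of 1.0. In both, the second ERβ2 siRNA array was the lowest of the 3 and still above every control. MIRLET7I went from 6.07, 5.66 and 5.85 to 6.89, 6.46 and 6.80, a rise of 0.86. The mature strands of both genes are shown with the seed, bases 2 to 8, in capitals, since the seed sets which targets a miRNA pairs with (RefSeq, GRCh38.p14). The 5p strands lie at chrX:134546371-134546393 on the minus strand and at chr12:62603691-62603712 on the plus strand, and the 3p strands at chrX:134546331-134546353 and chr12:62603747-62603768.
hsa-miR-503-5p: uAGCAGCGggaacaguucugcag
hsa-miR-503-3p: gGGGUAUUguuuccgcugccagg
hsa-let-7i-5p: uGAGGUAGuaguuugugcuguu
hsa-let-7i-3p: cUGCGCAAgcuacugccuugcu
None of the 4 shares its seed with another. The array gives 1 value per gene and does not tell the mature strands apart. Whether any mature miRNA rose was not measured.

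Genes of cell identity showed a mixed pattern within the mesenchymal state. Of 24 epithelial and luminal genes, 5 rose, 2 fell and 17 did not pass (median −0.05), and after centring 4 rose and 7 fell. Keratins KRT5, KRT18 and KRT8 and the tight junction gene CLDN7 (0.60) were among the rises. KRT5 went from 5.73, 5.76 and 5.95 to 6.72, 6.67 and 6.93, KRT18 from 10.41, 10.03 and 10.24 to 11.15, 11.10 and 11.06, and KRT8 from 7.37, 7.49 and 7.70 to 8.13, 8.37 and 8.39. The keratins were apart between groups, with changes of 0.96, 0.88 and 0.78, and the second KRT18 cluster rose by 0.63. KRT8 and KRT18 have many processed copies in the genome, so their values are uncertain. Of 20 mesenchymal genes, 8 rose and 4 fell (median 0.06, and −0.03 after centring). PDGFRA, a receptor of fibroblasts, rose by 0.77, SNAI1, a repressor of E-cadherin, by 0.69 and THY1 by 0.63, while TWIST2 fell by 0.53. Of 30 contractile and YAP-TEAD genes, 12 rose and 4 fell (median 0.10, with 9 in each direction after centring). CALD1 (caldesmon) rose by 0.80. ACTA2 (smooth muscle actin) went from 10.77, 10.82 and 10.77 to 11.54, 11.48 and 11.52 (0.73), and TEAD4, a partner of YAP, fell by 0.65. Of 33 NRF2 and glutathione genes, 10 rose and 5 fell (median 0.07, and −0.02 with 8 falls after centring), among them SOD2 (0.72) and CAT (0.62), which remove superoxide and peroxide, and PGD, of the pentose phosphate path, which fell by 0.44. Of 21 genes of tryptophan breakdown and NAD synthesis, 5 rose and 5 fell (median 0.05, and −0.03 after centring), with TDO2 (3.65-fold higher) the largest change.

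**Figure D4:**
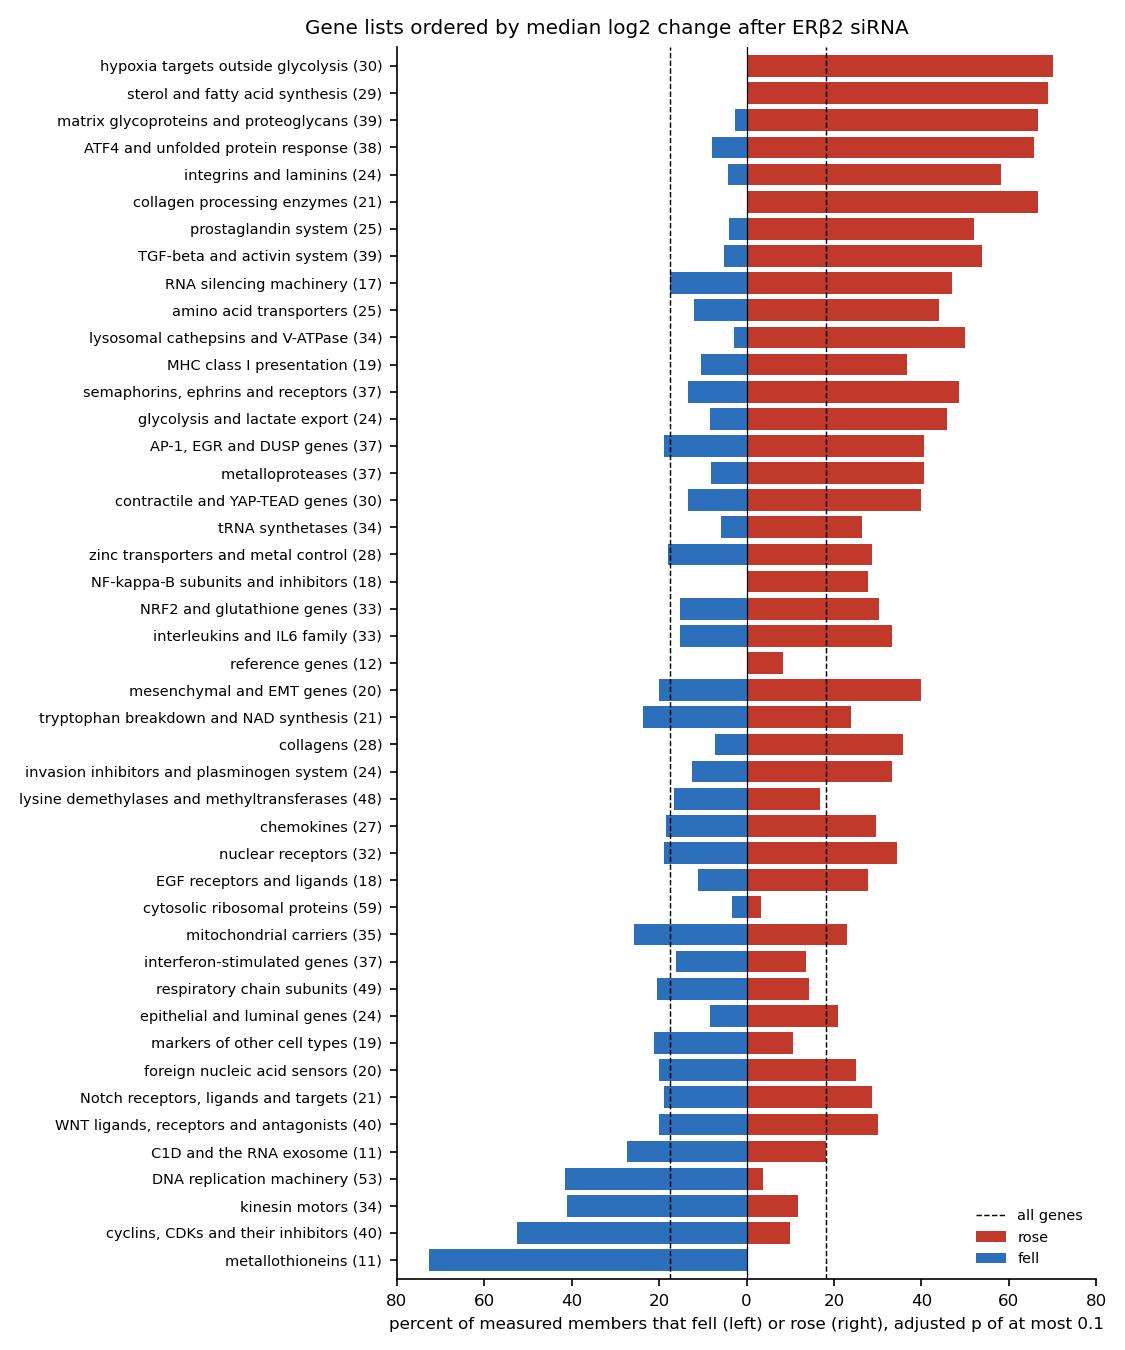
Percent of each of 45 gene lists (measured members in brackets) that rose (red, right) or fell (blue, left) with ERβ2 siRNA by limma at the adjusted p stated above, ordered by the median log2 change. Dashed lines give the shares over all genes, 18.3% and 17.5%. Hypoxia targets, sterol synthesis and matrix glycoproteins lie at the top and cyclins and metallothioneins at the bottom.

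The siRNA effect was set against the plasmid effect by their difference, tested with limma over all 12 arrays. Such a difference can be called where the plasmid has no effect, so it cannot show whether more ERβ2 does the opposite of less. The difference was called positive for 726 genes (4.04%) and negative for 263 (1.46%), and 729 of these 989 genes were themselves called after siRNA. Between ERβ2 plasmid and EV 2 genes passed the test (0.0111%), and 1260 had an unadjusted p under 0.05, against 7121 between the siRNA groups. H2BC8, a core histone, rose with the plasmid (0.53, adjusted p = 0.0794) and fell with ERβ2 siRNA by 0.49 (adjusted p = 0.0597). LIF, a cytokine of the IL6 family, rose in both, by 0.56 (adjusted p = 0.0794) and 0.46 (adjusted p = 0.00511). For the genes with the largest siRNA changes the plasmid effects were small. MMP1 had a plasmid effect of −0.15 and a difference of 2.80 (standard error 0.08, adjusted p = 2.53e-09), KDM1B had −0.18 and −2.01, TGFB3 0.16 and 1.95, and C1D 0.19 and −1.73. None of these plasmid effects passed. MT1F had −0.04 (standard error 0.11) and TPD52L1 0.00 (standard error 0.09). ESR2 had a plasmid effect of 0.47, which did not pass (adjusted p = 0.449 from limma). Its siRNA change of −0.02 did not pass either, and the difference of the 2 effects was −0.49 (adjusted p = 0.0328 from limma over all 12 arrays). The experiments differ in time (48 h and 24 h) and transfection reagent, which the difference cannot be told apart from.

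**Figure D5:**
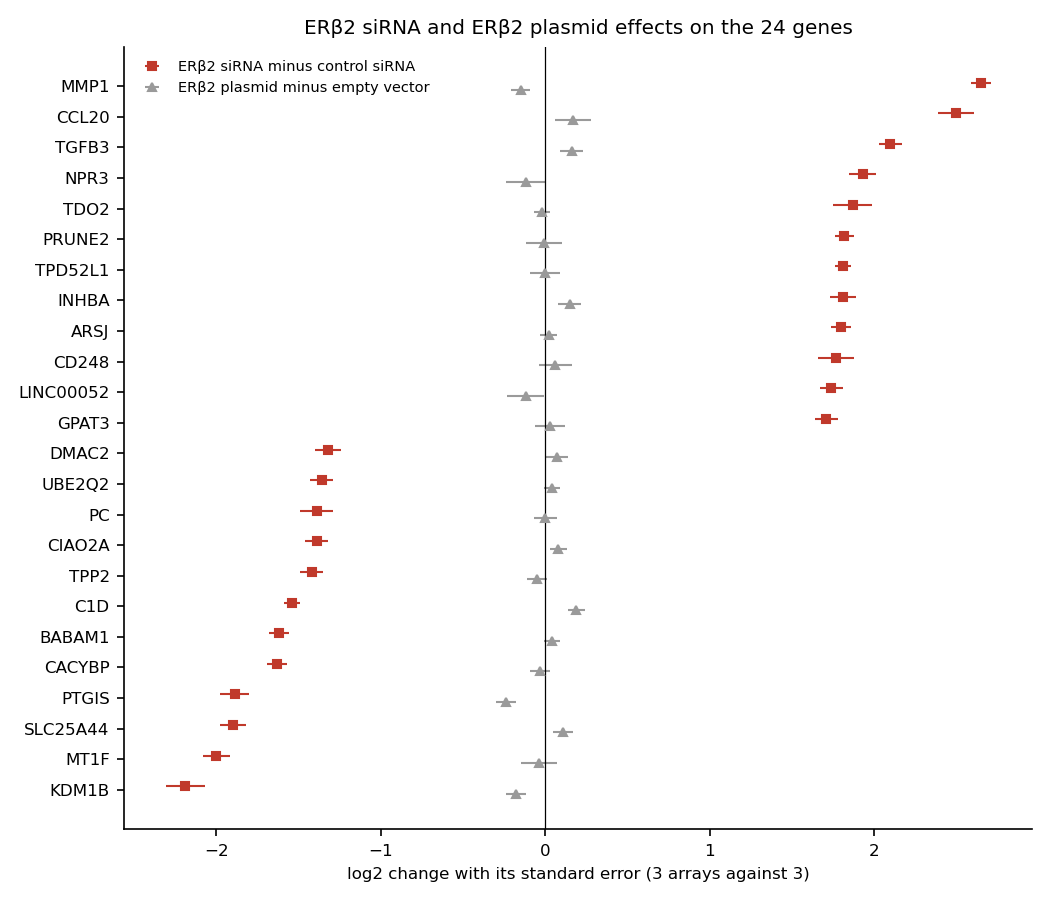
Log2 change with its standard error for the 24 genes with the largest siRNA changes, as ERβ2 siRNA minus control siRNA at 48 h (red squares) and ERβ2 plasmid minus EV at 24 h (grey triangles), 3 arrays against 3 in each. The plasmid effects all lie between −0.24 (PTGIS) and 0.19 (C1D).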

How the data were processed

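BT549 RNA from 4 groups of 3 arrays was measured. The authors corrected, normalized and summarised the signals by RMA with the Affymetrix Expression Console (version not given in the sources used here), and the deposited values were treated as log2, RMA's usual base, which no source states. Arrays have no read depth, so their number limits the precision. Clusters with several symbols (2055) or outside the annotation used here (12061) were left out. Groups were compared with limma 3.58.1 in R 4.3.3 (lmFit, eBayes), Benjamini-Hochberg adjusted over 17958 genes, without a filter or a replicate block. The test was tried on simulated data. Second clusters come from a fit over all clusters.

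Members of 45 lists (1312 measured genes) were counted, with no set test. The genes and lists were chosen with earlier results of these data known. Named were the 12 largest rises and 12 largest falls among called genes whose groups did not overlap, up to 4 genes past the test with the largest changes per list (all members of lists of up to 12), the study's qPCR genes, cell markers, reference genes and the 5 largest differences from the plasmid effect in each direction. The noncoding genes other than LINC00052, and H2BC8 and LIF, were named after their values were seen. Promoters and miRNAs came from RefSeq tables, and 13864 measured genes had a promoter there. Alternatives were all clusters or the first cluster per gene, a filter on dim genes, 3 re-scalings (further quantile, cyclic loess, centring each array on its median), the methods' t-test with Benjamini-Hochberg adjustment or q-values, limma's trend and robust options, 1 fit over 12 arrays, the replicate block, an adjusted p under 0.05 and leaving out each array.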

Additional observations from a re-analysis of the deposited data

Results flagged for a closer look

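For 10 genes the effect of ERβ2 siRNA differed from that of the ERβ2 plasmid by a test of the difference itself with limma over all 12 arrays, and these are the 5 largest differences in each direction, on the log2 scale. The positive ones were MMP1 at 2.80, CCL20 at 2.32, NPR3 at 2.05, TGFB3 at 1.95 and TDO2 at 1.89. The negative ones were KDM1B at −2.01, SLC25A44 at −2.01, MT1F at −1.95, C1D at −1.73 and BABAM1 at −1.66. The adjusted p of the 10 genes ran from 2.53e-09 (MMP1) to 2.60e-06 (MT1F). Groups of 3 arrays were too small for a search for single outlying arrays.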

How the results depend on the processing

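The number of genes called higher (584) ran from 428 to 639 and the number called lower (227) from 215 to 365 over 18 settings. Centring each array on its median gave 365 genes called lower and 6157 past the test and lower, against 3150. With the replicate number as a block 583 genes were called higher and 227 lower, and 993 differed from the plasmid effect. The same-number correlations of array deviations were 0.223, 0.143 and 0.014, so the numbers were not taken to pair the arrays, and ERβ2 siRNA replicate 3 correlated best with control siRNA replicate 2. The change of ESR2 turned to 0.06 on further quantile normalization and to 0.05 with cyclic loess. It ran from −0.09 to 0.07 when single arrays were left out, with 0.01 and 0.02 without control siRNA replicates 1 and 3 and 0.07 without ERβ2 siRNA replicate 3, and passed in none of these. RPL22 turned from −0.30 to 0.10 when the first cluster in the file was used. Of 197 named genes past the test, 178 kept it in every setting and 19 lost it in at least 1, and 15 of the 35 that did not pass did so in at least 1. The differences from the plasmid effect (989 genes) numbered 899 to 1084. ESR2 lies at percentile 20.3 of mean signal, which limits what its cluster can show.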
